A study of Mus musculus with 3 samples.

Results

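The insulin-like growth factor (IGF) group described here holds 9 genes, namely the ligands Igf1 and Igf2, the receptor gene Igf1r and the binding protein genes Igfbp2, Igfbp3, Igfbp4, Igfbp5, Igfbp6 and Igfbp7. They were chosen by name as 1 family because Igfbp5 was among the largest gains in suspension culture in these same data, so the values of Igfbp5 are given as a description. All 9 genes had a probe whose spot stood well above background, by the scanner software's own call, on at least 1 array, out of 15393 genes that met this criterion. The 9 genes had 13 probes, and 7 of the genes met it in all 3 states. In re-adherent cells, the spots of Igf2 and Igfbp3 were not well above background.

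IGF-1 and IGF-2 are secreted growth factors that act through the type 1 IGF receptor, a tyrosine kinase that signals through insulin receptor substrates to PI3K, AKT and mTOR. IGF-binding proteins (IGFBPs) hold the ligands outside the cell, where they carry them, keep them from the receptor or, once cut by proteases, release them close to it. In the heart, IGF-1 is known for its part in cardiac growth and in repair after infarction, and fibroblasts and macrophages are both known sources of it.

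The cells were cardiac myofibroblasts, the contractile and matrix-producing fibroblasts of the injured heart, from wild-type male C57BL/6J mice. Their hearts were taken 3 days after the left anterior descending coronary artery had been tied off permanently, and the labels give the age of the mice as 8 weeks in one field and 10 weeks in another. Digested cells that attached to plastic overnight were depleted of CD45-positive leukocytes on a magnetic column, and this step was shared by all groups. Adherent cells were grown on plastic plates, non-adherent cells were moved from such plates to suspension culture on ultra-low attachment plates, and re-adherent cells were taken from suspension back to plastic. Each stage lasted about a week and followed the one before, so that state and time in culture cannot be told apart. According to the methods, most of the cells placed in suspension were lost before RNA was collected, so the non-adherent and re-adherent RNA came from those that remained. The RNA was pooled from several hearts, and each state was measured on 1 array, so no spread between animals or cultures could be computed and no test was possible. In such bulk RNA, fewer cells of a type and less RNA per cell cannot be told apart.

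Signals are given in array units, after background subtraction by the scanner software. Differences are log2 values after each array was divided by its 75th percentile of signal, which was 651 on the adherent, 697 on the non-adherent and 541 on the re-adherent array. The error beside a difference is technical: it combines the software's error of the spots on both arrays, says nothing about the spread between cultures, and had a median of 0.20 over all genes. Probes differ in how strongly they bind, so that levels of different genes are not compared. Fold is the ratio of the scaled signals, and the words rose and fell are kept for differences over 2-fold. The lowest signal called well above background was 16.8 array units for adherent, 14.0 for non-adherent and 18.3 for re-adherent cells.

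In the non-adherent cells, 4 of the 9 genes (Igf1, Igfbp3, Igfbp4 and Igfbp5) rose against the adherent cells, where 17.2% of all genes did. The receptor gene Igf1r and Igfbp2 fell, where 14.7% of all genes fell. On re-adhesion the same 4 genes fell, together with Igf2 and Igfbp6, which makes 6 of 9 against 16.3% of all genes. Of these, Igf2 differed by about its technical error (-1.12 ± 1.02), with a re-adherent signal not well above background. Igf1r and Igfbp2 rose on re-adhesion, against 15.6% of all genes. Between the 2 plated states, Igf1 and Igfbp2 were over 2-fold higher in the re-adherent cells, against 4.84% of all genes. Igf2 and Igfbp3 were over 2-fold lower, against 4.9%, both with a re-adherent signal not well above background. The counts from the non-adherent array include Igfbp5, whose gain chose the family, and nothing is read from them. The median log2 difference of the 9 genes was 0.18 from adherent to non-adherent, -1.12 from non-adherent to re-adherent and -0.01 from adherent to re-adherent, and the same medians over all genes were -0.07, 0.08 and 0.06. The first and second of these steps share the non-adherent array, so a value that was high or low there moves both in opposite directions.

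**Figure D1:**
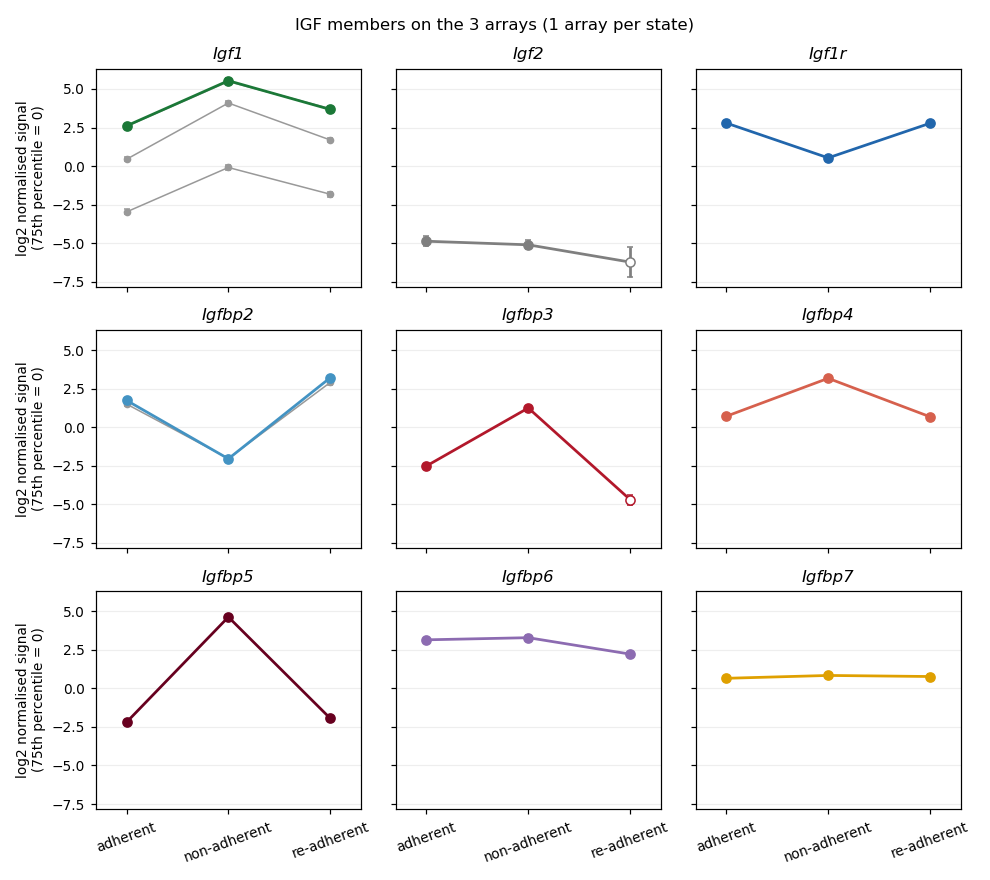
Log2 normalised signal (array 75th percentile at 0, y axis) of the 9 IGF genes in adherent, non-adherent and re-adherent cells, 1 array per state. Coloured lines show the probe with the highest mean signal, grey lines the other probes of the gene, bars the technical error, and open circles arrays on which the probe was not well above background. Igf1, Igfbp3, Igfbp4 and Igfbp5 peaked on the non-adherent array, Igf1r and Igfbp2 were lowest there, and Igfbp7 hardly moved.

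The plot of the 9 genes by array shows 4 genes with a peak in suspension, 2 with a trough there and Igfbp7 with a nearly flat course, while Igfbp6 was lowest in re-adherent cells and Igf2 lay near the detection limit. The promoters of 3 binding protein genes are shown because these genes show the peak and the trough. Igfbp2 and Igfbp5 are next to each other on mouse chromosome 1, with 0 annotated genes between them, and they moved in opposite directions. Each window runs from 250 bases before to 50 bases after the annotated start of transcription, 5′ to 3′ on the strand of the gene, from RefSeq on build GRCm38.p6. Capitals mark the matches to the motifs searched.
Igfbp5, chr1:72874816-72875115, minus strand: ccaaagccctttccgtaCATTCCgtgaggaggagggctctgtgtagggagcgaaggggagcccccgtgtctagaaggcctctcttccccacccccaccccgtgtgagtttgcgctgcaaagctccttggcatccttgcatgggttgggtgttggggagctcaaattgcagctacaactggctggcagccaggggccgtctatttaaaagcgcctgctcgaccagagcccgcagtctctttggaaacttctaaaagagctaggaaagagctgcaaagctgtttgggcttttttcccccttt
Igfbp2, chr1:72824230-72824529, plus strand: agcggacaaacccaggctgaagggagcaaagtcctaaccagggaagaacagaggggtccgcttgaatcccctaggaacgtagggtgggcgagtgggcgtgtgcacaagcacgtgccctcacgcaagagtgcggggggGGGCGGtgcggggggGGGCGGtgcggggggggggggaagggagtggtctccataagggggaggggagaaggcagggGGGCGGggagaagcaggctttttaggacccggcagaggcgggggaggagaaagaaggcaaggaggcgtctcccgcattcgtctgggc
Igfbp4, chr11:99040994-99041293, plus strand: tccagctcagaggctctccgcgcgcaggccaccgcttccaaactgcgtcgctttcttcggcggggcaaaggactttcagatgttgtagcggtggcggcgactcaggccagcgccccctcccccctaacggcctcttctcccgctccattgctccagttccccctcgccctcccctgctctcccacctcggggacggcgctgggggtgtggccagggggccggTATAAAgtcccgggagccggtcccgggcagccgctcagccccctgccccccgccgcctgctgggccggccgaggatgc

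The motifs were searched on both strands. They were the TATA box (TATAAA), the GC box bound by SP1 (GGGCGG), the site of TEAD factors (GGAATG), the AP-1 site (TGANTCA), a FOXO site (GTAAACA) and the CArG box of serum response factor. Over all 32851 mouse promoter windows of the same length, the share with a match was 13.6% for the TATA box, 35.7% for the GC box, 14.7% for TEAD, 7.81% for AP-1, 3.65% for FOXO and 1.63% for the CArG box. The Igfbp5 window held 1 TEAD match, at -233 from the start on the opposite strand. The Igfbp2 window held 3 GC boxes, at -113, -98 and -37, and the Igfbp4 window held a TATA box at -28. Igfbp2 has a further window, in which an AP-1 match at -39 was the one kind of motif found.

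A match is a description of the letters and does not show that a factor binds. Of the other genes, Igf1 had an AP-1 match at -37, which reads on both strands because the site is palindromic. TEAD matches were not particular to Igfbp5, since 3 of the 4 Igf2 windows held 4 of them, beside a CArG box and GC boxes. Igfbp6 had a TATA box match at -148. Igf1r held 2 GC boxes and Igfbp7 held 4. Igfbp3 held none of the 6 motifs, and its window was 71.7% G and C. The FOXO letters were in none of the 13 windows of the 9 genes. The member windows had a median of 63.3% G and C and 14 CG pairs, beside 52.7% and 7 over all windows.

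Igf1 encodes the ligand IGF-1, and its mRNA was far brighter in suspension. The probe with the highest mean gave 3969 array units in adherent, 32337 in non-adherent and 6907 in re-adherent cells. The non-adherent array was the highest, and the re-adherent array lay between the others. Igf1 rose by 2.93 ± 0.20 in suspension (7.60-fold) and fell by 1.86 ± 0.20 on re-adhesion, and it was 1.07 ± 0.20 above its adherent level in the re-adherent cells (2.09-fold).

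Igf1 is the member with the most spots, 4 probes to the same transcript with 2 spots each. The other probes gave 2.90, 2.88 and 3.64 from adherent to non-adherent, -1.75, -1.73 and -2.39 on re-adhesion, and 1.15, 1.15 and 1.25 from adherent to re-adherent. All 4 probes thus gave the same order of the arrays. The spots of 1 probe differed by at most 0.14 in any of the 3 comparisons, which is a spread between spots of the same arrays and not between cultures. In units, the dimmest of these probes went from 83.4 to 655 and back to 154, so the order held over a wide range of signal. The gain that Igf1 kept on the re-adherent array was the least certain of its values, from 0.58 to 1.15 over the scalings tried.

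Igf2 encodes the ligand IGF-2, an imprinted gene that is active mainly before birth. Its probe gave 22.3 array units in adherent, 20.4 in non-adherent and 7.28 in re-adherent cells. The first and second of these values lay just above the lowest signal called well above background, and the third was not well above background. Igf2 was -0.23 ± 0.44 from adherent to non-adherent, within its technical error. On re-adhesion the difference was -1.12 ± 1.02, about as large as its error, and against the adherent array it was -1.35 ± 1.02. With the re-adherent value set at the lowest signal called well above background there, the adherent level was at least 1.01-fold higher, and no fold could be given for the non-adherent level. Igf2 was therefore close to the detection limit in all 3 states, and its counts among the genes that fell rest on a signal below that limit.

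Igf1r encodes the type 1 IGF receptor. Its probe gave 4504 array units on the adherent, 1009 on the non-adherent and 3712 on the re-adherent array. The non-adherent array was the low one, and both plated states were close to each other. The mRNA fell by 2.26 ± 0.20 in suspension (4.78-fold) and rose by 2.24 ± 0.20 on re-adhesion. The difference between the plated states was -0.01 ± 0.20, within the technical error, and its sign depended on the scaling, with values from -0.50 to 0.07. In suspension, ligand and receptor mRNA thus went in opposite directions, Igf1 up and Igf1r down.

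Igfbp5 encodes a binding protein that is secreted and attaches to extracellular matrix. It had the third highest difference of all 15393 genes from adherent to non-adherent cells, which is how the family was selected. The single probe gave 142 array units on the adherent, 17069 on the non-adherent and 140 on the re-adherent array. Only the non-adherent array was bright, and the plated states stood at nearly the same low signal. The difference was 6.82 ± 0.21 in suspension (113-fold) and -6.56 ± 0.21 on re-adhesion (94.5-fold), the latter being rank 13 from the lowest. The re-adherent level was 0.25 ± 0.22 above the adherent level, with values from -0.23 to 0.34 under other scalings, so its sign was not settled.

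Igfbp3 encodes the main IGF carrier of the blood, which is also made by fibroblasts and endothelial cells. Its signal was 114 array units on the adherent, 1651 on the non-adherent and 21.0 on the re-adherent array, the last of which was not well above background. The order was a peak in suspension with the re-adherent level below the adherent one. Igfbp3 rose by 3.76 ± 0.21 in suspension (13.5-fold). On re-adhesion it fell by 5.94 ± 0.36 (61.2-fold). Its adherent level was 4.53-fold above the re-adherent level, a log2 difference of -2.18 ± 0.36. Both folds are plain ratios and not bounds, since the re-adherent signal lay above the lowest one called well above background there. Of the 4 genes that peaked in suspension, Igfbp3 was the one that ended over 2-fold lower than it began. With a normexp background correction, which adds a constant and draws in low signals, that difference was -0.84, and the value on re-adhesion was -3.96.

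Igfbp4 encodes a binding protein that keeps IGF from its receptor until it is cut by the protease PAPP-A. The probe gave 1064 array units on the adherent, 6260 on the non-adherent and 864 on the re-adherent array, again a single high value in suspension. Igfbp4 rose by 2.46 ± 0.20 (5.50-fold) and fell by 2.49 ± 0.20 (5.63-fold). The plated states differed by -0.03 ± 0.20, and the sign turned under other scalings, from -0.52 to 0.05.

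Igfbp2 encodes a binding protein that also carries an integrin-binding motif, and it followed the opposite course to Igfbp5. Its brighter probe gave 2168 array units on the adherent, 168 on the non-adherent and 4981 on the re-adherent array. The non-adherent array was the lowest and the re-adherent array the highest. Igfbp2 fell by 3.78 ± 0.21 in suspension (13.8-fold) and rose by 5.25 ± 0.21 on re-adhesion (38.1-fold).

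The re-adherent level of Igfbp2 was 1.47 ± 0.20 above the adherent level (2.76-fold), the highest such difference among the 9 genes. A further Igfbp2 probe gave 1841, 171 and 4030 array units, and differences of -3.53, 4.92 and 1.40 in the same order. Both probes match the same transcript, so they repeat the measurement on these arrays and not the experiment. From adherent to re-adherent the value ranged from 0.98 to 1.55 over the scalings tried. Igfbp2 and Igf1 were the members that ended above their adherent level by over 2-fold, and neither passed that fold with spike-in scaling. Igf1 also missed it with the 75th percentile over probes detected on all arrays (0.99), quantile normalization (0.89), no scaling (0.80) and the authors' values (0.89).

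Igfbp6 encodes a binding protein that prefers IGF-2. Its signal was 5728 array units on the adherent, 6747 on the non-adherent and 2509 on the re-adherent array, so that the low array was the last and not the one in suspension. The difference was 0.14 ± 0.20 in suspension, within the technical error and with a sign that turned under spike-in scaling (-0.25). Igfbp6 fell by 1.06 ± 0.20 on re-adhesion (2.09-fold), just past 2-fold, and stood at -0.93 ± 0.20 against the adherent cells, just short of it. Under 5 of the other scalings it passed 2-fold there, from -1.01 to -1.41.

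Igfbp7 encodes a matrix-associated protein that binds IGF only weakly. Its probe gave 1018 array units on the adherent, 1238 on the non-adherent and 917 on the re-adherent array. The differences were 0.18 ± 0.20, -0.07 ± 0.20 and 0.12 ± 0.20 for suspension, re-adhesion and both steps together. All lay within the technical error, and the first and last changed sign under other scalings (to -0.21 and -0.37 with spike-in scaling). Igfbp7 was the one binding protein of the 6 without a difference over 2-fold in any comparison.

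**Figure D2:**
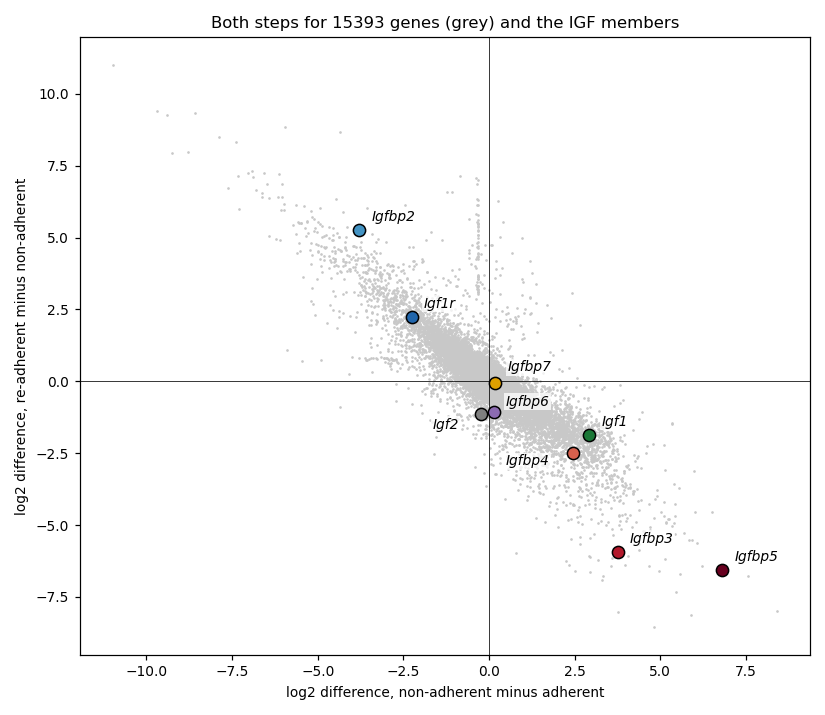
Log2 difference from adherent to non-adherent (x axis) against log2 difference from non-adherent to re-adherent (y axis) for 15393 genes in grey and the 9 IGF genes in colour, 1 array per state. Most genes lie along a falling diagonal because both axes share the non-adherent array. Igfbp5 and Igfbp3 lie far out at the lower right, Igfbp2 at the upper left, and Igfbp7 near the origin.

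The plot of both steps places the 9 genes among all genes on the arrays. From adherent to non-adherent, Igfbp3 ranked 126 and Igf1 438 from the highest, whereas Igfbp2 ranked 182 and Igf1r 664 from the lowest. On re-adhesion, Igfbp2 ranked 80 from the highest, and between the plated states it ranked 360 from the highest, whereas Igfbp4 and Igf1r were in the middle of the range. Igfbp3 has no fixed rank in these comparisons, since its re-adherent signal was not well above background. The spots around each member, within 5 rows and columns, had median differences between -0.30 and 0.10 for suspension and between -0.27 and 0.36 for re-adhesion, so none of the over 2-fold values lay in a patch of the slide that shifted by a like amount.

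The genes most like each member over both steps were searched among 13474 other genes well above background in all 3 states, by the Euclidean distance of the 2 log2 differences. With 3 arrays, many genes share any moderate pattern, so closeness is a description. For Igf1 they were Card9 (distance 0.02), Fcer1g (0.06) and Lpin1 (0.06). Card9 encodes a signalling adaptor of myeloid cells, and Fcer1g the shared gamma chain of Fc receptors, one of the macrophage markers used below. Igf1r was closest to Sfmbt2, Psat1 and Amot, at 0.02 to 0.05.

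Genes most like Igfbp2 included Ccn4 (0.57) and Dkk2 (0.58), genes of the WNT pathway. The closest gene to Igfbp5 was Fosb at 1.88, a subunit of AP-1, followed by Fbln7 (1.94) and Cd5l (2.04). Cd5l encodes a secreted macrophage protein. Igfbp5 was selected by its gain in suspension, which enters this distance, so few genes could lie near it. Nothing is read from its large distances. Igfbp4 was closest to Rnf207, Slc9b2 and Appl2 (0.03 to 0.08). Igfbp6 lay near Stxbp6, Cxcl12 and Fbxo2 (0.03 to 0.09), and Igfbp7 near Coq8b, Mrm2 and Abcd4 (up to 0.01). Igf2 and Igfbp3 were not searched because 1 of their arrays gave no signal well above background.

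The labelled cell type was checked first with 10 fibroblast genes, each of them well above background in all 3 states. Acta2, the smooth muscle actin gene of myofibroblasts, fell by 6.64 in suspension and rose by 6.57 on re-adhesion, a course like that of Igfbp2 and Igf1r in direction. Lum, the gene of the matrix proteoglycan lumican, rose by 3.56 and fell by 6.41, as Igfbp3 and Igfbp5 did in direction. Col1a1 and Postn differed from the adherent level by -0.70 and -0.12 in suspension, so the fibroblast genes did not move as 1 group.

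Most markers of leukocytes moved in the same direction as Igf1. Of 17 macrophage markers, 15 entered, and each was well above background in all 3 states although CD45-positive cells had been removed. In suspension, 14 of the 15 were over 2-fold higher, beside 17.2% of all genes, and 1 (Itgam) was not, with a median of 2.69. The 3 Itgam probes disagreed, from -0.84 to 1.96 in suspension and from -1.99 to 0.68 on re-adhesion. On re-adhesion 13 of 15 were over 2-fold lower, beside 16.3% of all genes, with a median of -1.58. In that step 1 (Cx3cr1) was over 2-fold higher, beside 15.6% of all genes. In re-adherent cells 8 were over 2-fold higher than in adherent cells, beside 4.84% of all genes, with 14 of 15 above 0. Igf1, at 2.93, -1.86 and 1.07, lay within the range of the list in each comparison, but that range was wide. On re-adhesion it ran from -3.28 (Mrc1) to 1.95 (Cx3cr1). Between the plated states it ran from -0.16 (Itgam) to 4.62 (Cx3cr1). On re-adhesion 3 of the 15 (Mrc1, Lyz2 and Adgre1) fell further than Igf1. Ptprc, the gene of CD45 itself, gave 355, 2441 and 532 array units in the order adherent, non-adherent and re-adherent. The summed level of the 15 genes, with the 75th percentile of each array at 1, was 258 in adherent, 1643 in non-adherent and 541 in re-adherent cells. Cd68 had no matched probe, and no array showed Cd163 well above background. The part of macrophages in the Igf1 values was not tested.

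**Figure D3:**
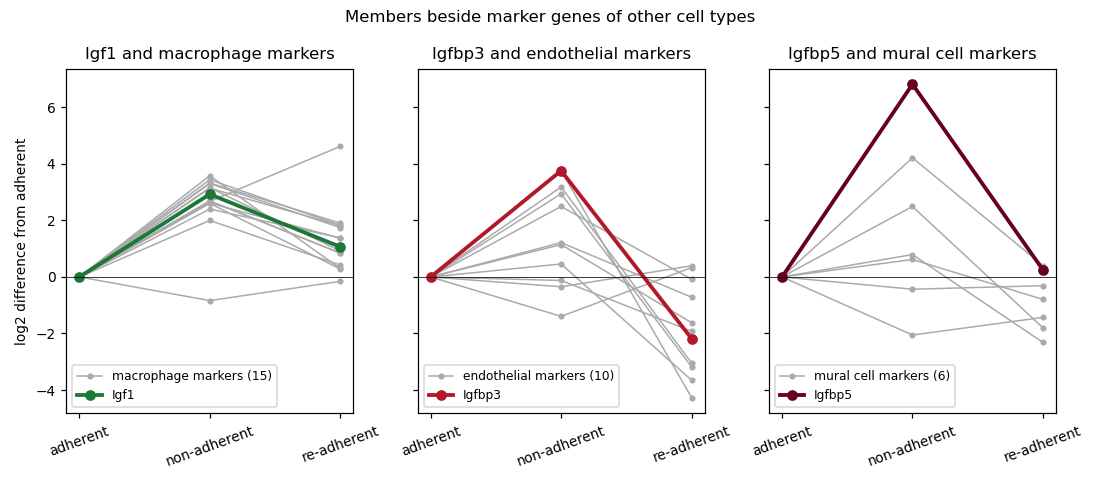
Log2 difference from the adherent array (y axis) on the 3 arrays for Igf1 with 15 macrophage markers (left), Igfbp3 with 10 endothelial markers (middle) and Igfbp5 with 6 mural cell markers (right), 1 array per state. Igf1 runs within the band of macrophage markers, which Itgam and Cx3cr1 widen. Igfbp3 ends below its adherent level as 8 of 10 endothelial markers did. Igfbp5 is drawn above the mural markers in suspension. Of these, Kcnj8 and Abcc9 were not well above background in adherent cells and have no fixed gain.

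In the plot of members beside marker genes, Igfbp3 is set against endothelial genes because endothelial cells are a known source of it. All 10 endothelial markers were well above background in adherent and non-adherent cells, and 7 were in re-adherent cells, with Tie1, Emcn and Cldn5 as the exceptions. In suspension 6 rose and 1 (Eng) fell, beside 17.2% and 14.7% of all genes. On re-adhesion 8 fell and 1 (Eng) rose, beside 16.3% and 15.6%. Between the plated states, 6 were over 2-fold lower in re-adherent than in adherent cells, beside 4.9%. Cdh5, the gene of VE-cadherin, differed by 2.94, -6.12 and -3.18, beside 3.76, -5.94 and -2.18 for Igfbp3. The fibroblast gene Lum gave 3.56, -6.41 and -2.85, so such values were not particular to endothelial genes. The summed level of the list was 37.3 in adherent, 42.5 in non-adherent and 39.5 in re-adherent cells, in which the bright genes Kdr, Eng and Egfl7 weigh most. The 2 Kdr probes disagreed, with -0.35, 0.74 and 0.39 for the brighter and 1.96, -3.18 and -1.23 for the other. The part of endothelial cells in the Igfbp3 values was not tested.

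Igfbp5 is known in mural cells as well as fibroblasts. Of 6 mural markers, Kcnj8 and Abcc9 were over 2-fold higher in suspension and Cspg4 was over 2-fold lower, beside 17.2% and 14.7% of all genes. With so few markers, nothing is read from these counts. Kcnj8 and Abcc9 were not well above background in adherent cells, so their gains are not fixed and were not ranked against that of Igfbp5. The gain of Kcnj8 was at least 4.10-fold. For Abcc9 the plain ratio was 5.62-fold, since its adherent signal lay above the lowest one called well above background. The summed level was 18.3, 15.0 and 13.7, mostly from Pdgfrb, and in re-adherent cells Rgs5, Kcnj8 and Abcc9 were not well above background. Whether mural cells take part in the Igfbp5 values was not tested.

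Of 5 mesothelial markers, 2 (Krt19 and Upk3b) were over 2-fold higher in re-adherent than in adherent cells, as Igfbp2 was, beside 4.84% of all genes. In suspension 1 of 5 (Krt19) fell and 0 rose, beside 14.7% and 17.2% of all genes. The differences were -2.27 for Krt19, -0.08 for Upk3b and 0.83 for Msln. The 5 mesothelial genes had a summed level of 3.58, 2.44 and 6.79 on the 3 arrays in the same order. On re-adhesion 3 of 5 rose, beside 15.6% of all genes. Of 9 cardiomyocyte markers 7 entered, and their summed level was low throughout, at 1.24, 2.08 and 3.37. The part of mesothelial cells in the Igfbp2 values was not tested.

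The other genes of the IGF pathway were read from 6 lists of 68 genes, of which 61 entered. In suspension 11 of 61 (18.0%) rose, close to the 17.2% of all genes, and 19 (31.1%) fell, where 14.7% of all genes did. On re-adhesion 15 (24.6%) rose, beside 15.6% of all genes, and 12 (19.7%) fell, beside 16.3%. Against the adherent cells, 1 gene (1.64%) was over 2-fold higher in re-adherent cells, beside 4.84% of all genes, and 7 (11.5%) were over 2-fold lower, beside 4.9%. The median differences were -0.21, 0.06 and -0.01. The plot of pathway genes shows them by list, and the lists follow in the order of ligand release, reception and signalling.

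The proteases that cut IGFBPs and their inhibitors were 8 genes, and all entered. In suspension 5 fell (Pappa, Pappa2, Stc2, Adam9 and Adam12) and 2 rose (Stc1 and Htra3), beside 14.7% and 17.2% of all genes. Pappa encodes PAPP-A, which cuts IGFBP-2, IGFBP-4 and IGFBP-5, and it gave 1310, 277 and 684 array units in the order adherent, non-adherent and re-adherent. It fell by 2.34 in suspension and rose by 1.67 on re-adhesion to 0.67 below the adherent level. Pappa2, of a related protease, was well above background only on the adherent array, at least 5.67-fold over the non-adherent level.

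Stanniocalcins inhibit PAPP-A, and their genes moved apart. Stc2 fell by 3.22 in suspension and rose by 3.18 on re-adhesion. Stc1 was well above background only in suspension, with 4.82, 77.7 and 4.10 array units, at least 4.34-fold over the adherent and 3.29-fold over the re-adherent array. Adam12, which encodes a metalloprotease that cuts IGFBP-3 and IGFBP-5, fell by 2.09 and rose by 2.13, and its 3 probes ranged from -2.09 to -1.16 in suspension.

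Of 7 other receptors and binding proteins, 4 entered. Igfbp1, Igfals, which encodes the acid-labile subunit of the circulating IGF complex, and Insrr gave no signal well above background in any state. Igf2r, whose protein clears IGF-2, differed by 0.65 in suspension, -0.59 on re-adhesion and 0.06 over both. Insr, the insulin receptor gene, rose by 1.01 by its brightest probe, but its 3 probes ranged from 0.08 to 1.01. Lrp1, of an endocytic receptor, rose by 1.04. Igfbpl1, of an IGFBP-like protein, was well above background only on the re-adherent array (74.2 array units), at least 5.33-fold over the adherent level. It is the 1 pathway gene counted as over 2-fold higher there, and its count among the genes that fell in suspension rests on 2 signals not well above background.

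All 24 genes of signalling from the receptor entered. In suspension 4 fell and 1 rose, beside 14.7% and 17.2% of all genes, and nothing about the list is read from these counts. Irs1, the adaptor that binds the activated receptor, gave 5324 array units on the adherent, 841 on the non-adherent and 5522 on the re-adherent array. It fell by 2.76 in suspension and rose by 3.08 on re-adhesion, and a further probe gave -3.70 and 4.17. This is the shape of Igf1r, with both plated states close together. Irs2, a related adaptor, did not follow it and differed by -0.72, -0.05 and -0.77.

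Grb10 and Grb14 encode adaptors that dampen signalling from the insulin and IGF receptors. Grb10 fell by 2.83 in suspension and rose by 2.23 on re-adhesion, and Grb14 fell by 2.81 and rose by 2.63. Eif4ebp1, of a translation repressor under mTOR control, fell by 1.06, and Grb2, of an adaptor to the RAS pathway, rose by 1.79. The kinase genes named here stayed short of 2-fold in suspension, with -0.32 for Akt1, 0.02 for Akt2, 0.37 for Mtor, 0.44 for Pik3ca and -0.88 for Rps6kb1. No signalling gene was past 2-fold between the plated states, where 4.84% of all genes were higher and 4.9% lower in re-adherent cells.

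FOXO factors are held in the cytoplasm by AKT, and several of the genes they induce act in growth arrest and protein breakdown. Of 10 such genes 9 entered, and 4 rose in suspension (Foxo1, Foxo6, Sesn1 and Fbxo32) while 0 fell, beside 17.2% and 14.7% of all genes. Foxo6 went from 83.1 to 1653 and back to 86.5 array units, so that it rose by 4.22 and fell by 3.89. Sesn1, of a stress-induced inhibitor of mTOR, rose by 2.84 and fell by 2.41. Foxo1 rose by 1.03 by its brightest probe, while a further probe gave 0.69, short of 2-fold. Fbxo32, a ubiquitin ligase gene of muscle atrophy, rose by 1.62, whereas Foxo3 differed by 0.26 and Cdkn1b by -0.13. The median over the 9 genes was 0.78 in suspension, beside -0.07 over all genes. That median is the value of Foxo4, which was not well above background in adherent cells and whose probes gave 0.78 and 1.97.

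In the growth hormone axis, which drives Igf1 transcription in the liver, all 6 genes entered. Ghr, the receptor gene, fell by 1.91 in suspension and rose by 1.84 on re-adhesion, opposite to Igf1. Socs2, of a feedback inhibitor of the receptor, fell by 1.19, and Stat5a rose by 1.11. Jak2, the kinase that the receptor uses, differed by -0.21 in suspension, short of 2-fold.

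The imprinted growth genes and regulators of Igf2 held 6 of the 7 pathway genes that were over 2-fold lower in re-adherent than in adherent cells. They are 6 of the 10 genes of this list that entered, beside 4.9% of all genes, and with normexp correction the 7 pathway genes were 3. H19, whose locus shares its imprinting control with Igf2, had no matched probe, and Plag1 and Lin28b gave no signal well above background in any state. Of the 10 that entered, 7 fell and 1 (Mest) rose in suspension, beside 14.7% and 17.2% of all genes. The 6 genes lower in re-adherent cells were Dlk1, Meg3, Mest, Plagl1, Cdkn1c and Peg3, of which Cdkn1c did not move in suspension (0.05) but dropped by 1.25 when the cells were replated. Dlk1 gave 214, 31.0 and 35.2 array units, a difference of -2.34 between the plated states, and Mest gave 227, 2323 and 62.9, a difference of -1.59. Plagl1 was uncertain, since its 4 probes ranged from -1.39 to -0.11 between the plated states.

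The other regulators of Igf2 were not over 2-fold lower in re-adherent cells. Hmga2, a fetal chromatin gene, gave 3957, 185 and 3673 array units, so it fell by 4.52 in suspension and rose by 4.68. Igf2bp3 fell by 1.48 and rose by 2.29. Igf2bp1 was not well above background in suspension, and its level was at least 14.1-fold higher in adherent and at least 19.6-fold higher in re-adherent cells. Igf2 itself was near the detection limit in all 3 states, as given above.

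**Figure D4:**
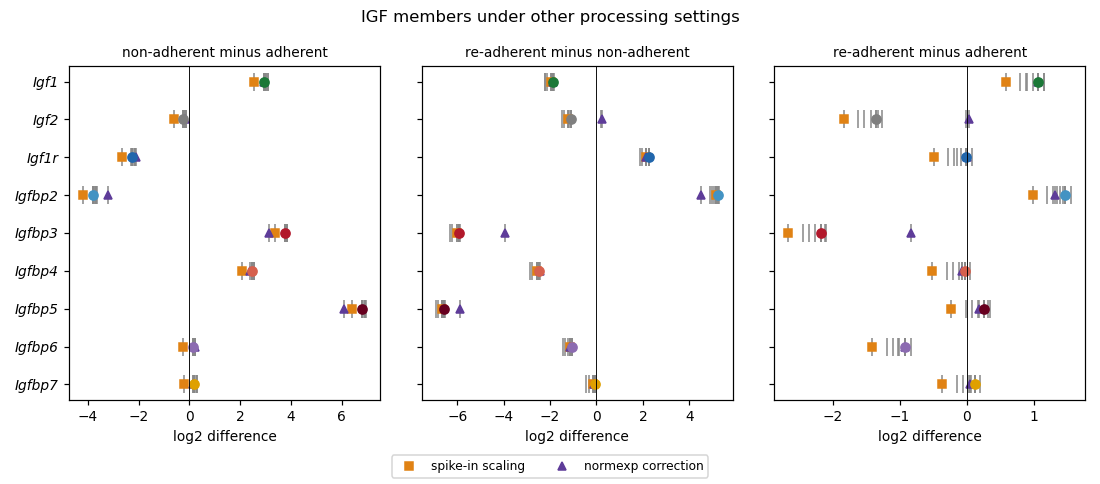
Log2 difference (x axis) of the 9 IGF genes in the 3 comparisons under the processing reported here (coloured circles) and under the alternatives tried (grey ticks), with spike-in scaling as squares and normexp background correction as triangles. The differences of over 2-fold in and out of suspension kept their sign except for Igf2 on re-adhesion, while several differences between the plated states lie on both sides of 0.

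The plot of the processing settings shows which values of the members depend on how the arrays were scaled. In suspension, the differences of Igf1, Igf1r, Igfbp2, Igfbp3, Igfbp4 and Igfbp5 kept their sign and stayed over 2-fold under each alternative that gave them a value. Spike-in scaling, added after the data were seen, lowered each difference from the adherent array, since it placed the median of all genes at -0.46 in suspension and -0.42 in re-adherent cells. On that scale, the re-adherent cells were 0.58 above the adherent cells for Igf1 and 0.98 for Igfbp2.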

How the data were processed

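Total RNA of 3 mouse cardiac myofibroblast samples, 1 per state, was labelled with Cy3 and hybridised to Agilent SurePrint G3 arrays (design 028005), all on the same slide and scan. The intensity values deposited by the authors are the scanner output of Agilent Feature Extraction 10.10.1.1, background-subtracted and detrended within each array but not normalised between arrays. A value table of the authors, the same intensity multiplied by 1 constant per array, was used as an alternative.

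Control and outlier-flagged spots (154 to 180 per array) were left out and 0 spots were saturated. Spots of a probe were averaged and log2 signal was taken relative to the 75th percentile of 59305 non-control spots, of which 31994 to 35538 were well above background. Of 37881 transcript names, 21465 matched a RefSeq gene after version removal. A gene was read by its probe with the highest mean, entered if any array had it well above background, and counted as changed past 2-fold. For genes not well above background on an array, the fold used that array's lowest signal called well above background and was a lower bound. Where the signal of the probe was higher than that, the fold is the plain ratio and not a bound. With 1 array per group no test was run; the number of arrays limits the precision. Scripts used Python 3.11.15, numpy 2.4.6, pandas 2.3.3, R 4.3.3 and limma 3.58.1 and were checked on simulated data.

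All members were named with every probe. Of the pathway lists, the rule named up to 6 genes per list with a log2 difference over 2 in size and well above background on both arrays, plus Igf2r, Insr, Igfbp1, Igfals, Irs1, Irs2, Pappa, Stc1, Stc2 and H19, and for each member the 3 most alike genes. Other genes are named where they complete a count, mark a cell type or stand for a group, and were chosen after their values were seen. Some genes in the counts are not reported here by name. The members and lists were chosen with earlier results of these data known. Alternatives were other scalings, normexp correction (with the median spot signal and an offset of 50), a floor on low signals, stricter detection, the mean of all probes, kept outlier spots and other fold thresholds. Spike-in scaling was added after seeing the data. Promoter sequences came from RefSeq on GRCm38.p6. The array design names build mm9, and no coordinates were taken from it.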

Additional observations from a re-analysis of the deposited data

How the results depend on the processing

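No paired analysis was possible because only 1 array was run for each state, and for the same reason leaving out a replicate could not be run. Of 156 counts under the alternatives, 132 were within 1.5 times the reported count and 24 were not. The number of IGF genes over 2-fold higher in re-adherent than adherent cells, reported as 2, was 1 with the 75th percentile over probes detected on all arrays, quantile normalization, no scaling or the authors' values, and 0 with spike-in scaling or a 4-fold threshold. Those over 2-fold lower, also 2, were 0 with normexp correction or with detection required on all 3 arrays, and 1 after raising low signals to the floor or at a 4-fold threshold; they were 3, with Igfbp6 added, under the 75th percentile over detected probes, quantile normalization, no scaling, the authors' values, spike-in scaling and a 1.5-fold threshold. Those that fell on re-adhesion, reported as 6, were 3 at 4-fold. For the pathway lists, genes that rose in suspension (11) were 4 at 4-fold and 7 with spike-in scaling, those that fell (19) were 10 at 4-fold, those that rose on re-adhesion (15) were 9 at 4-fold and those that fell (12) were 4 at 4-fold. Pathway genes higher in re-adherent than adherent cells (1) were 2 with median scaling or the mean of all probes, 0 with detection on all 3 arrays and 4 at 1.5-fold, and those lower (7) were 3 with normexp correction, 1 at 4-fold, 12 at 1.5-fold and 13 with spike-in scaling. Counts at 4-fold are lower by construction; the cause of the other shifts was not tested.

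Of 291 single-gene differences under the alternatives, 3 that were over 2-fold as reported changed sign, all of Igf2. Smaller differences were sorted only by how far they moved. Some of those of Igf1r, Igfbp4, Igfbp5, Igfbp6 and Igfbp7 also changed sign. On re-adhesion Igf2 was 0.22 with normexp correction and 0.21 after low signals were raised to the floor, and against adherent cells it was 0.034 with normexp correction, in each case with a re-adherent signal that was not well above background. A further 47 moved by more than their technical error, and 241 did not. The median of all genes between adherent and re-adherent cells was 0.06 as reported, 0.15 with median scaling, -0.20 without scaling, -0.11 with the authors' values and -0.42 with spike-in scaling, so differences of that size between the plated states have no settled sign.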
